A study of Homo sapiens with 4 samples.

Results

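The SMARCA4 and SMARCA2 ATPases work inside 3 kinds of BAF (SWI/SNF) chromatin remodelling complex, and 10 genes whose products tell these complexes apart are described here across 4 RNA-seq libraries. Canonical BAF (cBAF) is defined by ARID1A, ARID1B, DPF2 and DPF3, the polybromo complex PBAF by ARID2, PBRM1, BRD7 and PHF10, and non-canonical BAF (ncBAF) by BRD9 and BICRA. Genes were chosen by name, as rows of the count table whose symbol equals 1 of these 10, out of 63241 genes in all. Each symbol matched 1 row, and all 10 passed the filter on low counts, with 178 to 5038 counts per library.

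The cells were FT190, an immortalised human cell line derived from secretory cells of the fallopian tube, which the labels call ovarian epithelial and wild type in genotype in both groups. The 2 control libraries came from cells with the PLKO vector and the 2 shSMARCA4 libraries from cells expressing a short hairpin RNA against SMARCA4. Only 1 hairpin is named, so effects of SMARCA4 depletion and effects peculiar to that hairpin cannot be told apart. The study's title concerns polymerase pausing, R-loops and BRCA1-mediated repair after loss of SMARCA4. Whether the replicates were separate cultures is not stated, so a p-value reflects spread among these libraries alone, and that spread may be technical. In bulk RNA, fewer cells that express a gene and less of its RNA per cell cannot be told apart.

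BAF complexes slide or evict nucleosomes with energy from ATP, and so open enhancers and promoters to transcription factors. All 3 kinds share an ATPase and a core of scaffold proteins, and the defining subunits, added to that core, set where on chromatin a complex binds. ARID1A and ARID1B replace each other in cBAF, ARID2 takes the matching place in PBAF, and ncBAF has no ARID subunit. ARID1A is often mutated in clear cell and endometrioid ovarian carcinomas, and PBRM1 in clear cell kidney cancer.

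Library totals ran from 27137414 to 33641343 counts, with both controls deeper than both shSMARCA4 libraries. SMARCA4 stood at 171 and 162 CPM (counts per 1e+06 counts of the library, scaled) in the controls and at 34.0 and 36.3 CPM in the shSMARCA4 libraries, a 4.74-fold lower level, so the libraries matched their labels. Of the line's expected markers, PAX8, the transcription factor of tubal secretory cells, stood between 57.4 and 63.5 CPM, and the keratins KRT7, KRT8 and KRT18 were all at or above 302 CPM. EPCAM and KRT19 were under 0.56 CPM in every library, however, and the mesenchymal VIM was at 2127 to 2589 CPM. FOXJ1, which defines ciliated cells, had no more than 1 count in any library. Summed markers ranged from 1262 to 1853 CPM for the epithelial list and 4224 to 5130 CPM for the mesenchymal list, both lower in the shSMARCA4 libraries. These sums were carried by abundant genes such as KRT7, KRT8, VIM and COL1A1, which fell, whereas WT1 (log2 fold change 0.35) and ZEB1 (0.18) of the same lists rose. The same sums were 6.77 to 7.39 CPM for ciliated, 23.1 to 25.6 CPM for immune and 0.345 to 0.713 CPM for endothelial markers. Most of the ciliated sum was DNAH5, at 6.13 to 6.88 CPM, and most of the immune sum was CD68, at 21.7 to 24.3 CPM. For fibroblast and smooth muscle markers the sum was 283 and 300 CPM in the controls against 136 and 142 CPM in the shSMARCA4 libraries. Most of it was LUM, at 219 and 237 CPM in the controls against 107 and 110 CPM in the shSMARCA4 libraries. ACTA2 and PDGFRB of that list also fell. PDGFRA was near level (log2 fold change -0.03), and DCN had no more than 2 counts in any library. The part of these shifts in the results below was not tested.

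The comparison asked how the transcripts that define each complex stood once SMARCA4 was reduced. DPF3 of cBAF and ARID2 and BRD7 of PBAF rose, PHF10 of PBAF fell, and neither ncBAF gene passed the test. Thus 3 of the 10 rose and 1 fell, beside 13.8% of all 18781 genes tested that rose and 15.8% that fell (29.7% called in all, and 36.0% of the protein-coding genes among them). By complex, 1 of 4 cBAF genes rose, 2 of 4 PBAF genes rose and 1 fell, and 0 of 2 ncBAF genes were called. Below, "rose" and "fell" are used only where edgeR's quasi-likelihood test gave a Benjamini-Hochberg adjusted p below 0.05 over all genes tested. Fold changes are of shSMARCA4 over control, with a standard error (SE) and n = 2 libraries per group. Above 0 stood the log2 fold changes of 9 of the 10 genes, beside 49.2% of genes tested. The libraries of the groups did not overlap in CPM for 9 of the 10 genes, PBRM1 among them by a margin lost in rounding, beside 65.9% of genes tested. With scaling by library totals alone, 7 of the 10 rose, and genes that rose made up 59.5% of all calls in place of 46.6%.

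**Figure D1:**
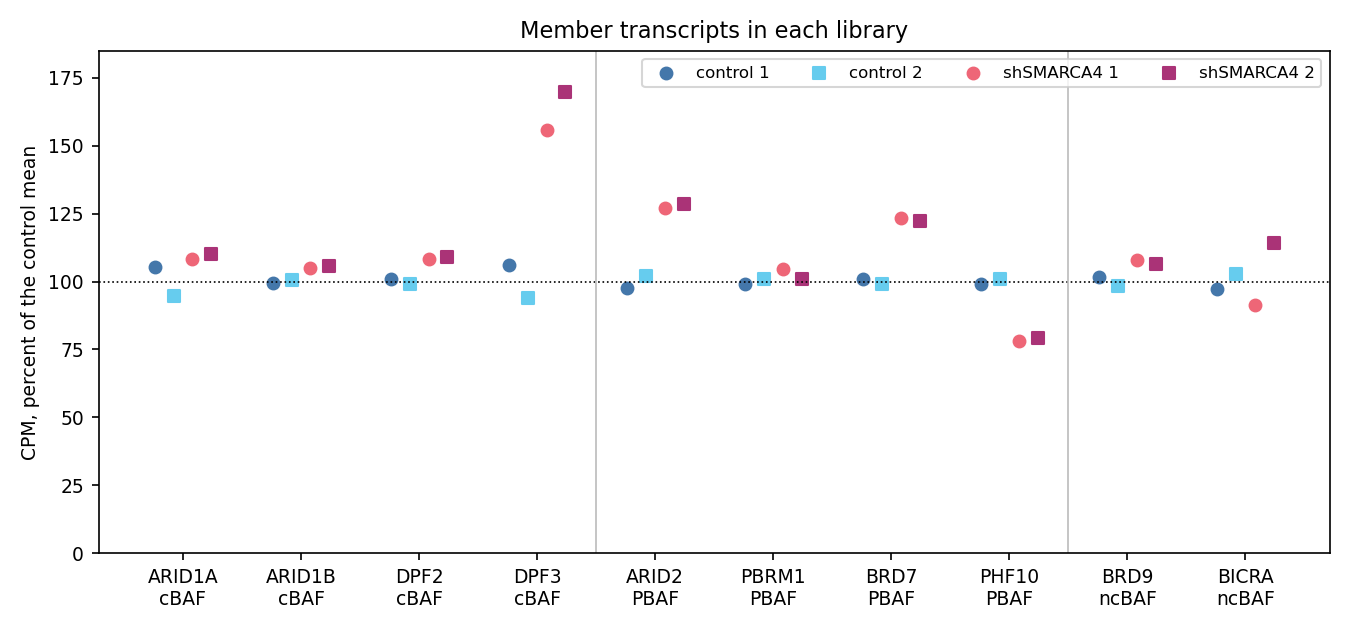
CPM of each of the 10 genes in each library, as a percent of the mean of the 2 controls (dotted line at 100), grouped by complex. DPF3, ARID2 and BRD7 lie above the line in both shSMARCA4 libraries, and PHF10 lies below it. The other genes lie nearer to it, with the shSMARCA4 libraries of BICRA spread on either side.

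In cBAF, ARID1A and ARID1B are the large DNA-binding subunits that hold the complex together. ARID1A (ENSG00000117713.21, chromosome 1, 26696015 to 26782104, plus strand, hg38) stood at 146 and 131 CPM in the controls against 150 and 153 CPM in the shSMARCA4 libraries. Both shSMARCA4 values lay above both controls, but control 1 was nearer to them than to control 2. The log2 fold change was 0.13 (SE 0.053, 95% interval 0.01 to 0.25), with an adjusted p of 0.104 by edgeR, short of the threshold. It was 0.21 without control 1 and 0.05 without control 2, fits in which 1 control remains and the spread of controls cannot be estimated. With both controls kept, it passed under upper-quartile factors (adjusted p = 0.046 by edgeR), library totals alone (0.0187) and a replicate block (0.0460).

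ARID1B (ENSG00000049618.25, chromosome 6, 156777378 to 157210779, plus strand) was steadier. Its controls stood at 114 and 115 CPM and its shSMARCA4 libraries at 120 and 121 CPM. The groups did not overlap, yet the gap was small, 0.07 on the log2 scale (SE 0.040, 95% interval -0.02 to 0.17, adjusted p = 0.200 by edgeR). An antisense long non-coding RNA, ENSG00000271551, overlaps the ARID1B start over 1045 bases. It held at most 36 counts in any library, against at least 3342 for ARID1B.

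DPF2 and DPF3 are paired PHD finger proteins that read histone tails, and they occupy the same place in cBAF. DPF2 is made in most tissues, while DPF3 is known from heart and skeletal muscle and from neurons. DPF3 (ENSG00000205683.12, chromosome 14, 72661054 to 72894101, minus strand) stood at 12.3 and 10.9 CPM in the controls against 18.1 and 19.7 CPM in the shSMARCA4 libraries. Every shSMARCA4 value was above every control, by more than the gap within either group. The rise was 1.63-fold, a log2 fold change of 0.70 (SE 0.091, 95% interval 0.50 to 0.91, adjusted p = 0.000599 by edgeR). It exceeded in size the log2 fold changes of 91.1% of genes tested. DPF3 rested on 351 to 543 counts per library, whose counting error alone is 4.29% to 5.34%.

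DPF2 (ENSG00000133884.11, chromosome 11, 65333843 to 65354241, plus strand) stood at 54.6 and 53.6 CPM in the controls against 58.7 and 59.0 CPM in the shSMARCA4 libraries. The groups did not overlap, but the log2 fold change of 0.12 (SE 0.046, 95% interval 0.02 to 0.22) missed the threshold (adjusted p = 0.0776 by edgeR). The value was 0.14 without control 1 and 0.11 without control 2. DPF1, the remaining gene of the family, is known from neurons, and stood at 7.47 and 6.54 CPM in the controls against 7.49 and 6.92 CPM in the shSMARCA4 libraries. Its groups overlapped (log2 fold change 0.04, SE 0.12, 95% interval -0.22 to 0.31).

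The promoters of DPF2 and DPF3 are shown because these paralogs share a place in cBAF while DPF3 alone of them passed the test; the difference between their fold changes was not tested. Both are RefSeq entries on GRCh38.p14 and run from 250 bases before the start site to 50 after it. Capitals mark any of 8 motifs, searched on both strands. They were the GC box GGGCGG, the box CCAAT that gives the factor NF-Y its sites, the letters CCGGAAG of ETS factors, those of CREB as TGACGTCA, the E-box CACGTG, those of YY1 as AAGATGGCG, those of AP-1 as TGACTCA and the TATA box as TATAAA. No motif is part of another. The DPF3 start is that of the transcript counted, and the DPF2 start lies 9 bases from it.
DPF3, chr14:72894052-72894351, minus strand: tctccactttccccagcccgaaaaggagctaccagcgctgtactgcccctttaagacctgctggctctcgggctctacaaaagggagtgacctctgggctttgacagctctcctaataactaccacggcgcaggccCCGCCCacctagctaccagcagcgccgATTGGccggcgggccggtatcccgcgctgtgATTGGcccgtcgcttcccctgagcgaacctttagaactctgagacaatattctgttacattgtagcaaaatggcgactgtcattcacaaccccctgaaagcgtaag
DPF2, chr11:65333602-65333901, plus strand: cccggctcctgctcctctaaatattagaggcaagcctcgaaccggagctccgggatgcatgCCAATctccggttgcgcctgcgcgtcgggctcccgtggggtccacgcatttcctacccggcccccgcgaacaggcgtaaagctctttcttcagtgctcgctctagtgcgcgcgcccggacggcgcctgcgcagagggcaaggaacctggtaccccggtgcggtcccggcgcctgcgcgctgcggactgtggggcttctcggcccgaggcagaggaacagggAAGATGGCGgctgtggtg

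The DPF3 promoter held 2 CCAAT boxes and 1 GC box, and the DPF2 promoter 1 CCAAT box and 1 YY1 motif. Of 35116 RefSeq promoters of this length, 34.6% held a CCAAT box, 45% a GC box and 1.75% the YY1 letters. The DPF3 sequence had 18 CG pairs and 57.0% G or C, the lowest of the 9 genes with a promoter entry at the start nearest to the transcript counted. DPF2 had 33 CG pairs and 67.7% G or C, and the median of all promoters was 14 pairs and 58.7%. Another RefSeq entry of DPF3, not shown, starts 1452 bases from the start of the transcript counted. It had 21 CG pairs, 63.3% G or C, 2 GC boxes and 1 CCAAT box. A match to a motif is a description of these letters and not a site of binding.

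In PBAF, ARID2 is the subunit on which the rest of the PBAF module assembles. ARID2 (ENSG00000189079.18, chromosome 12, 45729706 to 45908037, plus strand) stood at 59.1 and 61.8 CPM in the controls against 76.8 and 77.6 CPM in the shSMARCA4 libraries. The shSMARCA4 libraries were close to each other and far above both controls. This was a 1.28-fold rise, 0.35 on the log2 scale (SE 0.046, 95% interval 0.25 to 0.46, adjusted p = 0.000616 by edgeR).

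PBRM1, also called polybromo, carries several bromodomains, which bind acetylated histones. PBRM1 (ENSG00000163939.19, chromosome 3, 52545367 to 52685913, minus strand) stood at 153 and 156 CPM in the controls against 162 and 156 CPM in the shSMARCA4 libraries. Control 2 and shSMARCA4 library 2 were level with each other, and the groups touched there. Its log2 fold change of 0.04 (SE 0.041, adjusted p = 0.524 by edgeR) had a 95% interval of -0.05 to 0.13. The span of UQCC5, on the other strand, overlaps that of PBRM1, with at most 326 counts against at least 4310.

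PHF10 is a PHD finger subunit that takes in PBAF the place that DPF proteins take in cBAF, and is known from dividing progenitor cells. PHF10 (ENSG00000130024.15, chromosome 6, 169707028 to 169724005, minus strand) stood at 82.7 and 84.4 CPM in the controls against 65.3 and 66.2 CPM in the shSMARCA4 libraries. It was the 1 gene of the 10 whose shSMARCA4 values lay below both controls. The level was 1.27-fold lower, and the log2 fold change was -0.35 (SE 0.044, 95% interval -0.45 to -0.25, adjusted p = 0.000512 by edgeR). The pseudogene PHF10P1 held at most 2 counts in any library. Its promoter is shown because PHF10 was the gene that fell; the RefSeq start lies 495 bases upstream of the start of the transcript counted.
PHF10, chr6:169724451-169724750, minus strand: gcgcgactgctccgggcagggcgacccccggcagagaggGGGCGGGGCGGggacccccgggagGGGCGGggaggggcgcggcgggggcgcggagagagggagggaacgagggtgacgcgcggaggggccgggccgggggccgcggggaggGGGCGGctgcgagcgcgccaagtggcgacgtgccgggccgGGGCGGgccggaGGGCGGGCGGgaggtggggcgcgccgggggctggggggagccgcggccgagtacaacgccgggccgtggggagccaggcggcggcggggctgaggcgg

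This window had 47 CG pairs and 85.3% G or C, the highest of the 9 genes, and 7 GC boxes, some of them overlapping. None of the other motifs searched was in it. It therefore stood at the opposite end from the DPF3 promoter shown above in G and C content. The promoter of BRD7, which rose as DPF3 did, had 73.3% G or C. Whether this content goes with the direction of change was not tested. The values for the 9 genes are a description, without a test.

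BRD7, a bromodomain protein also known as a partner of p53, is a PBAF subunit. BRD7 (ENSG00000166164.17, chromosome 16, 50315957 to 50368988, minus strand) stood at 114 and 112 CPM in the controls against 140 and 139 CPM in the shSMARCA4 libraries. The groups were far apart relative to the gaps within them, and the rise was 1.23-fold. The log2 fold change was 0.30 (SE 0.040, 95% interval 0.21 to 0.39, adjusted p = 0.000736 by edgeR).

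The counts of BRD7 share a stretch with those of a neighbour. ADCY7, an adenylate cyclase gene on the plus strand, ends inside BRD7: the spans in the count table overlap by 2179 bases, 35.0% of the ADCY7 length, and counting ignored strand. In GENCODE release 29 the overlap, at chromosome 16, 50315957 to 50318135, lies within terminal exons of both genes. ADCY7 stood at 31.8 and 33.0 CPM in the controls against 49.5 and 51.0 CPM in the shSMARCA4 libraries, and it rose (0.63, SE 0.052, adjusted p = 5.44e-05 by edgeR). Taking from BRD7 the share of ADCY7 counts that the overlap would hold if reads lay evenly left a log2 fold change of 0.26 (SE 0.041, adjusted p = 0.00187 by edgeR). Taking away all ADCY7 counts, the most that could be shared from the side of ADCY7, left 82.4 and 79.3 CPM in the controls against 90.3 and 87.6 CPM in the shSMARCA4 libraries. That log2 fold change was 0.14 (SE 0.045, adjusted p = 0.0459 by edgeR), less than the 0.30 of the deposited counts, and still just past the threshold. Both settings were chosen after the overlap was seen. Reads of these genes within the overlap cannot be told apart, and ADCY7 counts may in turn hold reads of BRD7. The values of both, the rise of ADCY7 included, are therefore uncertain. A long non-coding RNA on the plus strand, ENSG00000261393, overlaps the start of BRD7 by 409 bases and held at most 10 counts in any library. The pseudogene BRD7P2 held 10 to 16 counts per library.

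**Figure D2:**
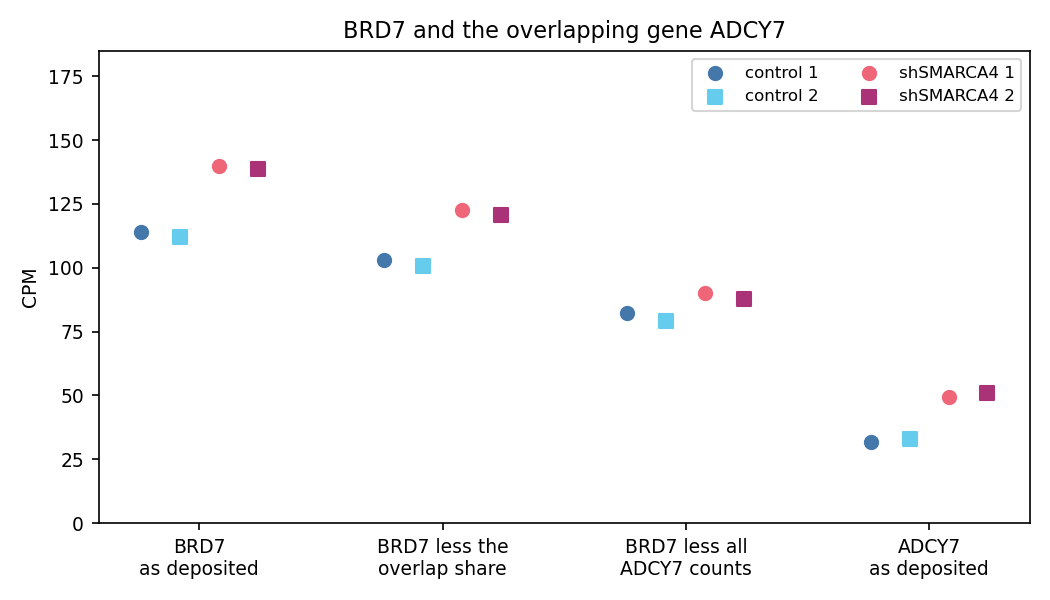
CPM of BRD7 as deposited, of BRD7 less the overlap share or all of the ADCY7 counts, and of ADCY7, in each of the 4 libraries. The distance between shSMARCA4 and control libraries of BRD7 shrinks with each subtraction, and the shSMARCA4 libraries remain higher.

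The BRD7 promoter, shown because BRD7 is the other PBAF gene that rose for which an entry was found, had 37 CG pairs and 3 GC boxes and none of the other motifs. Its start is that of the transcript counted.
BRD7, chr16:50368939-50369238, minus strand: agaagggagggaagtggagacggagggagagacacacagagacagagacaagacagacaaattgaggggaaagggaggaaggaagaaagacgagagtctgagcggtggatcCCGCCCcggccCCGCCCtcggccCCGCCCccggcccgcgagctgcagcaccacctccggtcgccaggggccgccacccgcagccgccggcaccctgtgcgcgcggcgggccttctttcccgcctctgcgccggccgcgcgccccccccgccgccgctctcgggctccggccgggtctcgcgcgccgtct

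In ncBAF, BRD9 reads acetylated histones through its bromodomain and is the target of small molecules that degrade it. BRD9 (ENSG00000028310.18, chromosome 5, 863741 to 892800, minus strand) stood at 46.3 and 44.7 CPM in the controls against 49.2 and 48.5 CPM in the shSMARCA4 libraries. The shSMARCA4 libraries were above both controls by a small margin. The log2 fold change of 0.10 (SE 0.049, 95% interval -0.01 to 0.21) missed the threshold (adjusted p = 0.154 by edgeR). The transcript counted for BRD9 is of the nonsense-mediated decay type in GENCODE release 29, so exons particular to other BRD9 transcripts were not counted.

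BICRA, a scaffold of ncBAF, was the least abundant of the 10 genes. BICRA (ENSG00000063169.12, chromosome 19, 47609134 to 47703277, plus strand) stood at 6.52 and 6.91 CPM in the controls against 6.14 and 7.68 CPM in the shSMARCA4 libraries. The shSMARCA4 libraries lay on either side of the controls, so the groups overlapped. The log2 fold change was 0.04 (SE 0.13, adjusted p = 0.858 by edgeR), and its wide 95% interval of -0.26 to 0.34 includes the value of BRD7. Without shSMARCA4 library 2 it was -0.13, and without library 1 it was 0.19. BICRA rested on 178 to 223 counts per library, with a counting error of 6.70% to 7.5%. BICRAL, which can replace BICRA, stood at 21.0 and 23.3 CPM in the controls against 24.3 and 26.7 CPM in the shSMARCA4 libraries (0.20, SE 0.078, adjusted p = 0.0817 by edgeR).

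**Figure D3:**
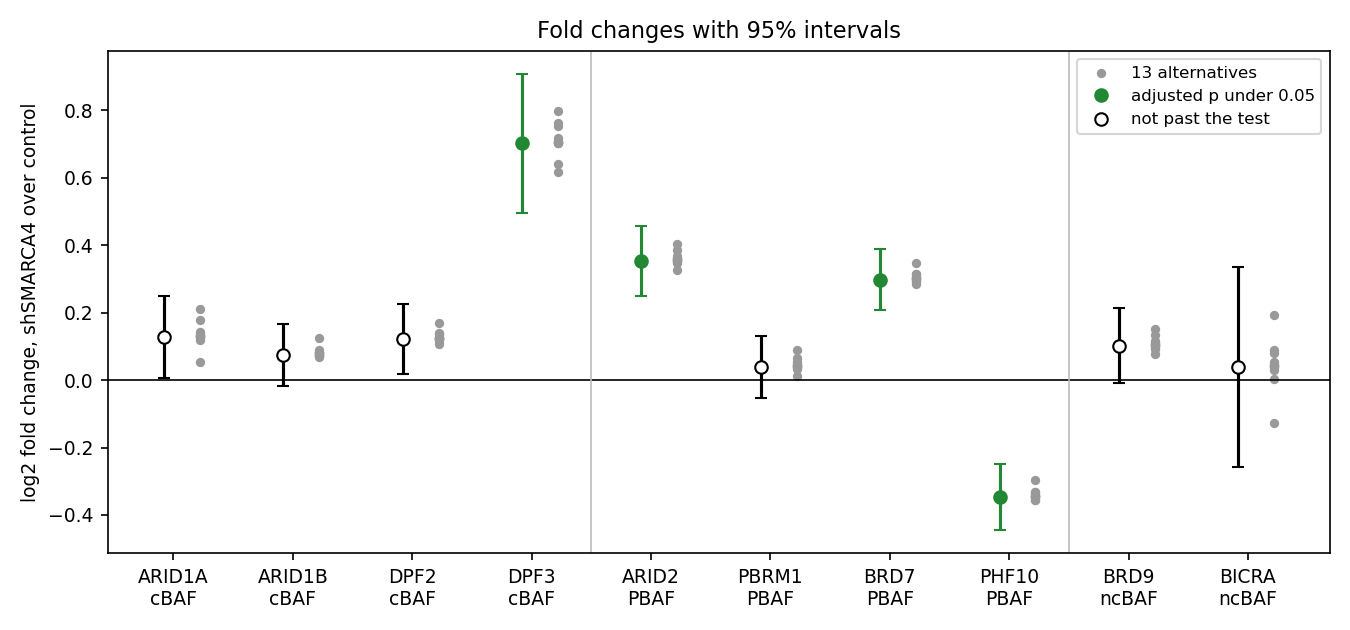
Log2 fold change of each gene with its 95% interval (circles; filled where the adjusted p is under 0.05) and its value under each of 13 other ways of processing (grey). The filled circles of DPF3, ARID2, BRD7 and PHF10 keep their side of 0 throughout, and the grey points of BICRA fall on both sides.

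The median log2 fold change was 0.12 for the 4 cBAF genes, 0.17 for the 4 PBAF genes and 0.07 for the 2 ncBAF genes, beside 0.00 for all genes tested. PBAF spanned from -0.35 for PHF10 to 0.35 for ARID2, and cBAF from 0.07 for ARID1B to 0.70 for DPF3. These medians describe the lists and carry no test. The cBAF median was 0.18 without control 1 and 0.10 without control 2. With all ADCY7 counts taken from BRD7 the PBAF median was 0.089, below that of cBAF. The ncBAF median was 0.14 without shSMARCA4 library 1 and -0.0081 without library 2.

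Levels of different genes were compared as CPM per kilobase of the transcript counted. These levels, and the shares and ratios below, depend on the deposited length of that transcript. For ARID1B it was 10271 bases against 8246 in GENCODE release 29, and for BICRA 5658 against 532. The transcripts counted for DPF2, PBRM1 and BRD7 were not found in that release. BRD7 was highest in the controls, at 20.8 ± 0.254 CPM per kilobase, followed by PBRM1 at 19.5 ± 0.237 and PHF10 at 19.1 ± 0.271 (SD, n = 2). Next came ARID1A (16.2 ± 1.2), BRD9 (16.2 ± 0.407), DPF2 (14.1 ± 0.187), ARID1B (11.1 ± 0.0975) and ARID2 (7.06 ± 0.222 CPM per kilobase). DPF3 (2.77 ± 0.239) and BICRA (1.187 ± 0.0483 CPM per kilobase) were far below the rest. Of neighbours in this order, only ARID1A and BRD9 overlapped between control libraries, though PBRM1 and PHF10 were nearly level, at no less than 19.4 against no more than 19.3 CPM per kilobase. The first place rests on the reads shared with ADCY7: less the overlap share BRD7 took the third place, at 18.9 and 18.5 CPM per kilobase in the controls, and less all ADCY7 counts the fifth, at 15.1 and 14.6.

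In the shSMARCA4 libraries PHF10 dropped from the third place to the sixth, at 15.01 ± 0.137 CPM per kilobase, below ARID1A, BRD9 and DPF2. With its counts as deposited BRD7 was first at 25.6 ± 0.159 CPM per kilobase, and BICRA was last at 1.22 ± 0.192 (SD, n = 2). Less all ADCY7 counts BRD7 stood at 16.6 and 16.1 CPM per kilobase, below PBRM1, ARID1A and BRD9. SMARCA4 itself stood at 31.0 and 29.5 CPM per kilobase in the controls, above each of the 10 genes, against 6.17 and 6.60 in the shSMARCA4 libraries, below all of them but DPF3 and BICRA. SMARCA2, the alternative ATPase, stood at 10.3 ± 0.199 and 8.89 ± 0.0753 CPM per kilobase. BICRAL (3.42 ± 0.251 CPM per kilobase in the controls) was above BICRA, and DPF1 (3.02 ± 0.284) overlapped DPF3 there.

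**Figure D4:**
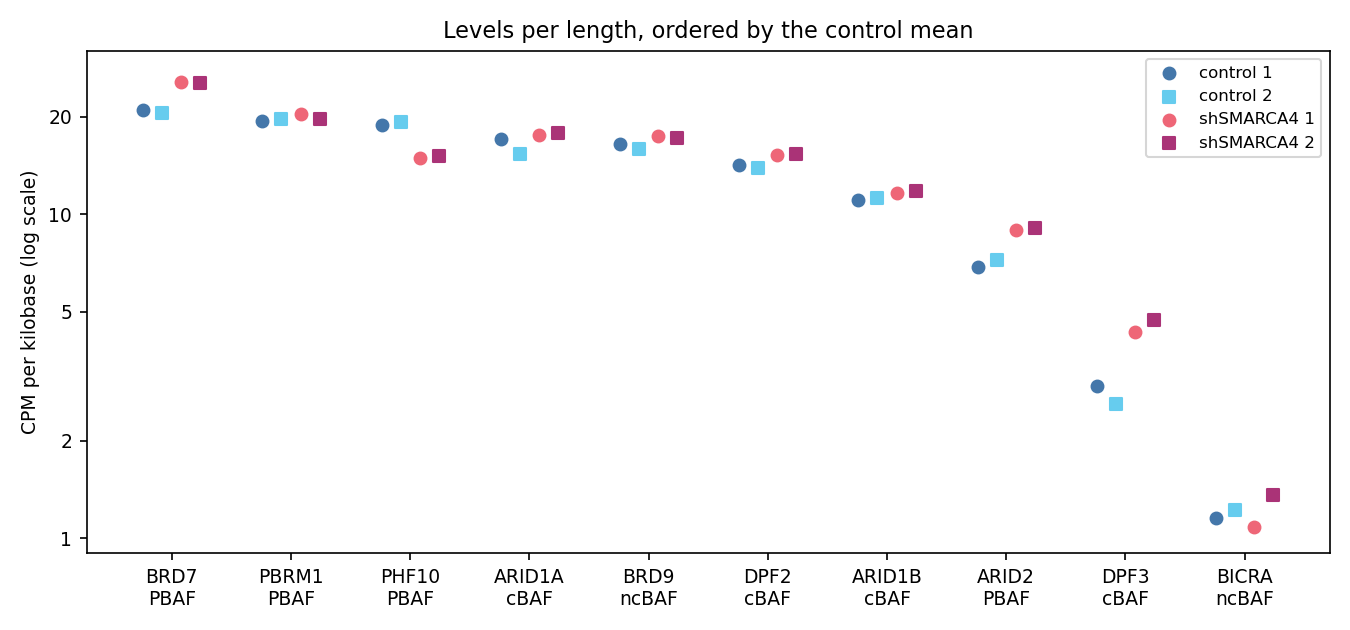
CPM per kilobase of the transcript counted, on a log axis, for each gene in each library, ordered by the control mean. The 7 genes from BRD7 to ARID1B lie within 11.1 to 25.7 CPM per kilobase, and ARID2, DPF3 and BICRA lie lower in turn.

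Summed per kilobase, the 4 PBAF genes held 51.3% and 52.6% of the total of all 10 in the controls against 50.9% and 50.4% in the shSMARCA4 libraries. The cBAF genes held 35.1% and 33.9% in the controls against 35.5% and 36.1% in the shSMARCA4 libraries. For ncBAF the shares were 13.7% and 13.5% in the controls against 13.5% in each shSMARCA4 library, so the groups were within the spread of their replicates. The cBAF and PBAF shares did not overlap between groups. With BRD7 counts as deposited, each moved by an amount near the gap between the 2 controls. Less all ADCY7 counts, the PBAF share was 49.0% and 50.2% in the controls against 47.5% and 46.8% in the shSMARCA4 libraries. That shift was wider than the gap between the 2 controls. These are shares of transcripts and not of assembled complexes.

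Ratios between single genes were taken in each library and are a description, without a test. The ratio of DPF3 to DPF2, per kilobase, was 0.207 and 0.187 in the controls against 0.284 and 0.308 in the shSMARCA4 libraries, 1.498 times the control mean. PHF10 relative to DPF2 and DPF3 together, the PBAF against the cBAF subunits of the same place, was 1.10 and 1.17 in the controls against 0.762 and 0.754 in the shSMARCA4 libraries. That ratio thus went from above 1 to below 1 with the transcript lengths used here. ARID2 relative to ARID1A and ARID1B together went the other way, from 0.245 and 0.272 to 0.307 and 0.306.

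PBRM1 per ARID2 went from 2.80 and 2.73 in the controls to 2.28 and 2.17, where ARID2 rose and PBRM1 did not pass the test. BRD7 per BRD9 was 1.27 and 1.30 in the controls against 1.47 and 1.48 in the shSMARCA4 libraries, with the ADCY7 overlap included. Less all ADCY7 counts it was 0.919 and 0.917 against 0.949 and 0.934. The ratio of ARID1B to ARID1A was 0.649 and 0.730 in the controls, which enclosed the 0.664 and 0.661 of the shSMARCA4 libraries. BICRA per BRD9 also overlapped, at 0.0700 and 0.0769 against 0.0621 and 0.0787.

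**Figure D5:**
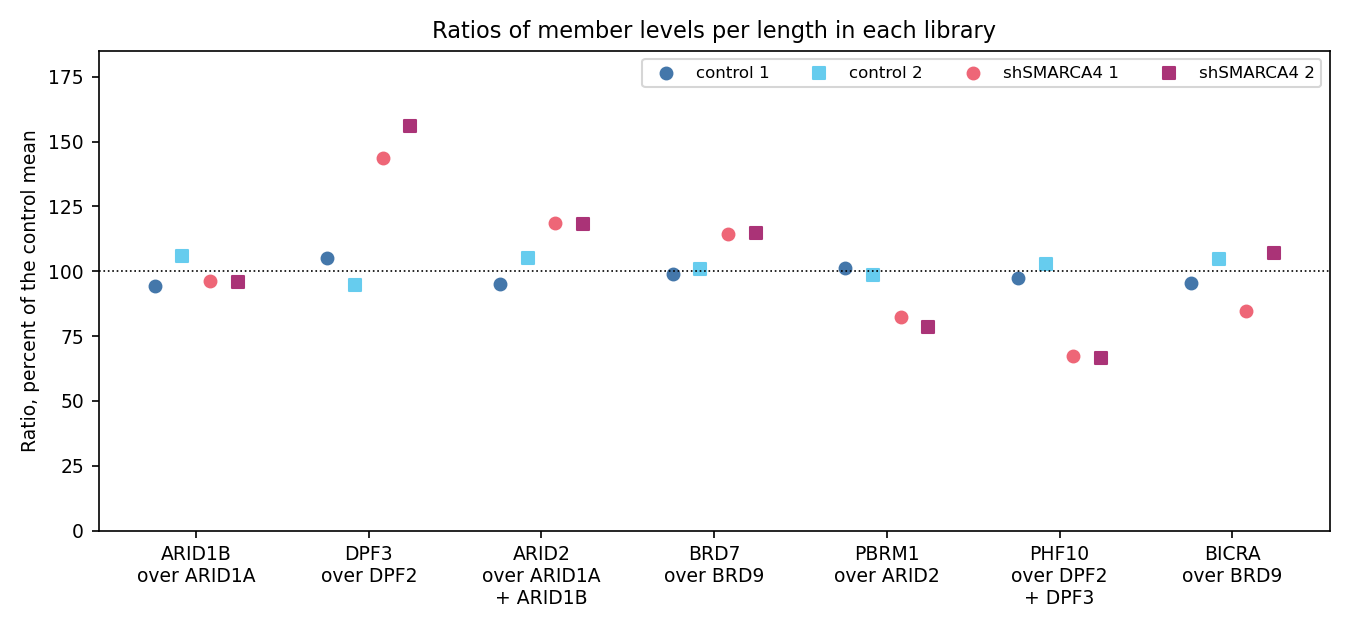
Ratios of levels per kilobase in each library, as a percent of the control mean (dotted line at 100). DPF3 over DPF2 is highest and PHF10 over DPF2 and DPF3 lowest in both shSMARCA4 libraries, while ARID1B over ARID1A and BICRA over BRD9 overlap between the groups.

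Other BAF subunits gave 5 that rose and 6 that fell of 18 tested, from a list of 21 genes, with SMARCA4 among the latter, beside the 29.7% of all genes called. ACTL6B, BCL11A and BCL11B were removed by the filter. The core scaffold SMARCC1, on which all 3 complexes are built, fell from 292 ± 1.21 to 155 ± 4.47 CPM (SD, n = 2), more than any of the 10 defining genes. The scaffold partner SMARCD1 fell by 0.33 on the log2 scale (SE 0.049), and SMARCA2 by 0.21 (SE 0.047). ACTB, the actin that is also a BAF subunit, fell by 0.41 (SE 0.055), and most of its RNA serves the cytoskeleton. BCL7A, an accessory subunit, rose by 0.78 (SE 0.062), and the actin-related ACTL6A rose by 0.29 (SE 0.041). The count that rose was 2 without shSMARCA4 library 1.

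By distance over the 4 libraries, the genes closest in pattern to each of the 4 called genes were found among 10878 protein-coding genes. The measure was the root mean square difference of log2 CPM, centred on the controls. For DPF3 they were PNPT1 (0.034) and NT5C3A (0.035), which share its higher value in control 1 and in shSMARCA4 library 2. For ARID2 they were PAXIP1 (0.0097) and NAP1L5 (0.0098), for BRD7 TMEM109 (0.0036) and NT5C3B (0.0041), and for PHF10 AGA (0.00066) and PIK3CA (0.0042). Within 0.05 lay 234 genes for ARID2, 462 for BRD7 and 338 for PHF10, but 4 for DPF3. Of the 4 called genes DPF3 had the largest change and the fewest counts, and their part in its low number was not tested.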

How the data were processed

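Raw counts per gene were deposited. Per the file headers, the authors ran analyzeRepeats of HOMER on exons of GENCODE 45 (hg38). That command ignored strand, kept 1 transcript per gene and did not normalise. STAR 2.6.1c and DESeq2 1.19.38 are named per the submitters' processing notes. Of 6 libraries in the header's command, the 4 with a value column were used. The length in bases (another unit), deposited beside the counts, gave CPM per kilobase.

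The filter filterByExpr (count minimum 10) left 18781 of 63241 genes. edgeR 4.0.16 in R 4.3.3 fitted all of them with trimmed-mean (TMM) factors, without a covariate (glmQLFit, glmQLFTest, two-sided, threshold 0.05). An SE is the absolute log2 fold change over the root of F, and 95% intervals use the t quantile of each gene and are not adjusted. Between replicates, chi-square per degree of freedom was 6.33 (controls) and 1.88 (shSMARCA4), above sampling noise.

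All genes described, lists and alternatives were chosen with earlier results of these data known. Named besides the 10 genes were SMARCA2, DPF1, BICRAL and the 6 other BAF subunits with the smallest adjusted p, SMARCA4 among them. So were 3 members per domain family by the same rule, overlapping genes and pseudogenes reaching 10 counts, and 2 pattern neighbours per called gene. Other genes named were chosen after their values were seen. Alternatives were other scaling, filters, DESeq2 1.42.0, limma-voom (3.58.1), protein-coding genes alone, a replicate block and leaving out each library. Leaving out a library leaves 1 in its group, so the spread in those fits comes from the other group alone. Promoters came from RefSeq (GRCh38.p14), with entries for 9 of the 10 genes.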

Additional observations from a re-analysis of the deposited data

How the results depend on the processing

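The calls of DPF3, ARID2, BRD7 and PHF10 held in each of 13 alternatives, with log2 fold changes of 0.62 to 0.80, 0.33 to 0.40, 0.29 to 0.35 and -0.36 to -0.30. The count of the 10 genes that rose was 3, and it was 5 with upper-quartile factors (ARID1A and DPF2 added), 7 with library totals alone (ARID1B and BRD9 also added) and 3 to 5 leaving out single libraries. The count that fell was 1 under each. BICRA stood between -0.13, a reversal, without shSMARCA4 library 2 and 0.19 without library 1, and the cause was not tested. Genes that rose over the whole table numbered 1403 with no filter on low counts, 1625 with DESeq2 and 1638 to 3592 leaving out single libraries, against 2596. Genes that fell numbered 1784, 1930 and 2123 to 3760, against 2976. The other BAF subunits that rose numbered 2 with no filter, 3 with DESeq2 and 2 to 6 leaving out single libraries, and those that fell 5 to 8. The cBAF median was 0.17 and the PBAF median 0.22 with library totals. Leaving out single libraries gave 0.10 to 0.18 for cBAF, 0.15 to 0.18 for PBAF and -0.0081 to 0.14 for ncBAF. With ADCY7 counts taken from BRD7, the PBAF median was 0.15 (overlap share) and 0.089 (all). Without the length correction, or with ADCY7 counts taken from BRD7, PBRM1 and not BRD7 ranked first in the controls, and DPF3 and BICRA stayed in the last places.

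Replicate numbers are shared by the groups, but nothing says that they pair libraries. Deviations of same-numbered libraries correlated at 0.27. With the replicate block 4 of the 10 genes rose and 1 fell, ARID1A being added (0.13, adjusted p = 0.0460 by edgeR). Of all genes tested, 3187 rose and 3562 fell. Depth limits BICRA most, whose counts allow the widest interval of the 10.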

Other observations

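Relatives of the 10 genes that share their domains moved in both directions. Of 10 other genes with an ARID DNA-binding domain that were tested, 3 rose and 2 fell, beside 29.7% of all genes called and 36.0% of protein-coding ones. ARID5B, a cofactor of a histone demethylase, fell from 102 ± 4.71 to 64.4 ± 1.48 CPM (SD, n = 2; log2 fold change -0.66, SE 0.049). JARID2, a partner of Polycomb repressive complex 2, rose from 30.5 ± 0.614 to 46.2 ± 2.57 CPM (0.60, SE 0.059). ARID4A, which binds the retinoblastoma protein, fell (-0.45, SE 0.064). ARID3C was removed by the filter. The adjusted p-values of these 3 by edgeR lay between 3.43e-05 and 0.000928.

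Of 34 other bromodomain genes tested, 9 rose and 4 fell, beside 29.7% of all genes called and 36.0% of protein-coding genes, with CECR2 removed by the filter. The nuclear body proteins SP110 and SP100 and the WD repeat protein BRWD3 had the smallest adjusted p. SP110 stood at 45.2 and 49.1 CPM in the controls against 71.0 and 88.5 CPM in the shSMARCA4 libraries (0.76, SE 0.093). SP100 rose by 0.40 (SE 0.076), and BRWD3 by 0.38 (SE 0.051). The medians were 0.03 for the ARID and -0.01 for the bromodomain genes, beside 0.00 for all genes tested.

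PBRM1 and BRD9 each start next to a gene on the other strand, chosen here after their values were seen. GNL3, a nucleolar GTPase gene that starts 103 bases from PBRM1, stood at 190 and 177 CPM in the controls against 205 and 206 CPM in the shSMARCA4 libraries. It rose (0.16, SE 0.045, adjusted p = 0.0238 by edgeR), where PBRM1, at 0.04, missed the threshold. The difference between these neighbours was not tested. TRIP13, which starts 84 bases from BRD9, stood at 141 and 121 CPM in the controls against 132 and 127 CPM in the shSMARCA4 libraries, so its groups overlapped (-0.01, SE 0.067).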
